A study of Mus musculus with 6 samples.

Results

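The DNA replication machinery was examined in 2 germline stem cell preparations of newborn CD1 mice through 43 genes that license origins, unwind and copy DNA, or supply deoxynucleotides. The members were listed by name, and every probe whose symbol in the array's annotation was on the list was taken, which gave 86 of the array's 45281 probes. All 43 genes had a probe, among 19053 named genes on the array. One group, the spermatogonial stem cells (SSC), came from testes of mice aged 6 days, and the other, the female germline stem cells (FGSC), from ovaries of mice aged 3 days. Both groups were CD1, no transgene or treatment is labelled, and each group had 3 samples, hybridised to Mouse WG-6 v2.0 arrays from Illumina. The series set the expression profiles of the 2 populations side by side. The groups differ at once in sex, organ and age, and these cannot be told apart. Nothing in the labels ties the replicates to separate mice or preparations, and p-values therefore reflect only the spread between these samples, possibly a technical one. The sources used here give no enrichment or culture step.

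Replication starts when the origin recognition complex, with Cdc6 and Cdt1, loads a ring of Mcm proteins onto DNA, a step that geminin (Gmnn) blocks by binding Cdt1. The kinase Cdc7, with its activator Dbf4, then allows Cdc45 and the GINS complex to join the ring and turn it into the active helicase. Polymerase alpha and its primase start each strand, the replication factor C complex loads the sliding clamp Pcna, and polymerases delta and epsilon extend the strands. Replication protein A (RPA) covers the single strands, Fen1 and Lig1 finish the lagging strand, and ribonucleotide reductase and thymidylate synthase supply precursors. Spermatogonia copy their DNA before each mitotic division, whereas oocytes arrested in meiotic prophase do not copy it.

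Below, levels are normalized log2 intensities, a difference is FGSC minus SSC of these levels, given ± its standard error (SE) in the limma fit, and a gene is called when its adjusted p (limma with Benjamini-Hochberg adjustment over 10628 genes) lies under 0.05. Differences of dim genes are compressed, because a constant of 16 was added to every background-corrected intensity, and levels of different probes are not compared with each other. The arrays detected between 16198 and 18823 probes at a detection p-value under 0.05, with 57 to 64 of the 86 replication probes among them. FGSC replicate 3 stood apart. Its correlation across genes with FGSC replicates 1 and 2 was 0.956 and 0.964, against 0.994 between those 2 arrays and 0.986 to 0.994 within SSC. A replication gene's difference whose call, sign or size (by over 1.5 times) changes without that array is also given without it.

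The markers of other cells differed between the groups as well. All 11 tested oocyte markers were higher in FGSC, and their summed linear intensity was 46072 to 49360 on the FGSC arrays against 2883 to 3355 on the SSC arrays. In SSC this sum came mainly from Sohlh1 (mean log2 intensity 11.23) and Kit (8.86), and the other means lay between 4.71 and 5.33. Of 10 tested spermatogonial markers 8 were lower and 1 was higher in FGSC (sums of 1334 to 1445 against 3353 to 3887 in SSC). Shared germ cell markers split into 2 higher and 2 lower of 5. The counts of called somatic markers, beside 31.5% of all genes tested that were lower in FGSC and 30.9% that were higher, were as follows. Lower in FGSC were 5 of 8 for Sertoli cells (1 higher), 3 of 4 for Leydig and theca cells, 5 of 6 for peritubular and smooth muscle cells, 4 of 6 for fibroblasts, 3 of 6 for granulosa and ovarian somatic cells (1 higher), 2 of 6 for endothelium and 1 of 2 for leukocytes. The Sertoli and granulosa lists share Fshr, called lower, and Amhr2, not called, so these counts are not separate. Without FGSC replicate 3, 3 of 6 peritubular markers were lower, and 6 Sertoli markers were lower and 0 higher. The summed Sertoli marker intensity was 970 to 1003 in SSC and 329 to 431 in FGSC, and that of peritubular markers was 3073 to 3311 against 334 to 358. Each sum includes the added constant for every gene, and 4 of the 8 Sertoli markers were undetected on every FGSC array. The peritubular sum in SSC came mainly from Mylk (mean log2 intensity 11.23). Among defining markers, Amh and Cyp17a1 were not detected on any FGSC array, and Foxl2, a granulosa factor, did not pass the detection filter. Other members of these lists were present in FGSC. Wnt4, a granulosa marker, was higher there (0.94 ± 0.16) and detected on 3 FGSC arrays and 1 SSC array. Sox9, a Sertoli marker, was also called higher (0.53 ± 0.19). Fst and Inha, called lower, and Amhr2, not called, were detected on every FGSC array. The part that these cell types have in the values below was not tested. In such bulk samples, fewer cells of a type and less RNA per cell cannot be told apart.

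Replication genes changed in both directions, and subunits of the Mcm ring, of the Cdc45 and GINS group and of ribonucleotide reductase were called on opposite sides. The higher subunits of the ring and the reductase held less firmly. Rrm2 lost its call in 9 alternatives of the processing, and Mcm2 lost it with median scaling. Of the 43 genes, 38 passed the detection filter, and 21 of them were called, which is 55.3%, against 62.4% of all genes tested. Of these, 13 (34.2%) were higher in FGSC, with a background of 30.9%, and 8 (21.1%) were lower, with a background of 31.5%. The median difference of the 38 was 0.01 and that of all genes -0.003, while the median absolute differences were 0.62 and 0.52. A called difference of at least 1 was reached by 4 genes in FGSC and by 4 in SSC, where 12.7% and 14.1% of all genes did so, 26.7% in all. The SSC and FGSC values did not overlap for 23 of the 38 genes, against 71.0% of all genes. Of these 23, 14 were higher in FGSC (35.2% of all genes) and 9 lower (35.7%). Against this background the number of calls is no result about these genes, and the values below describe which of them moved. When arrays were scaled to a common median, the median of all genes shifted to -0.12 and the calls among all genes from 49.6% to 39.1% higher, and 8 replication genes were higher and 7 lower. Without FGSC replicate 3, 15 were higher and 10 lower, with backgrounds of 32.5% and 33.3%.

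**Figure D1:**
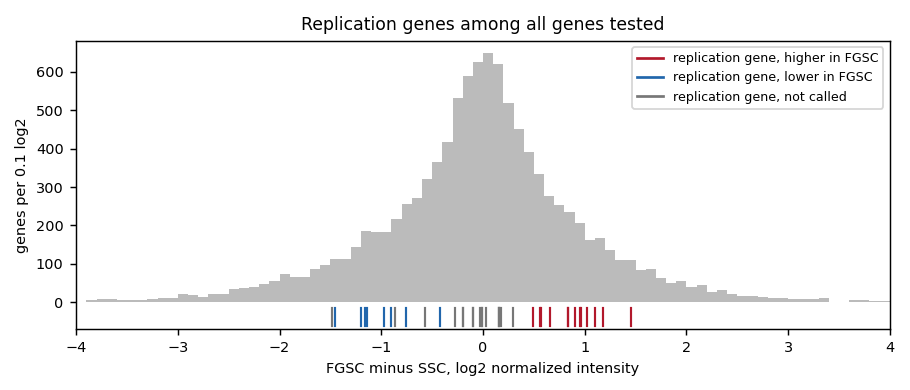
Histogram of the FGSC minus SSC difference (log2 normalized intensity, x axis) for all 10628 genes tested, in genes per 0.1 log2 (y axis), with a tick below it for each of the 38 tested replication genes coloured by its call; 72 genes beyond 4 log2 units lie outside the plot. The ticks run from -1.48 to 1.45, within the bulk of all genes.

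**Figure D2:**
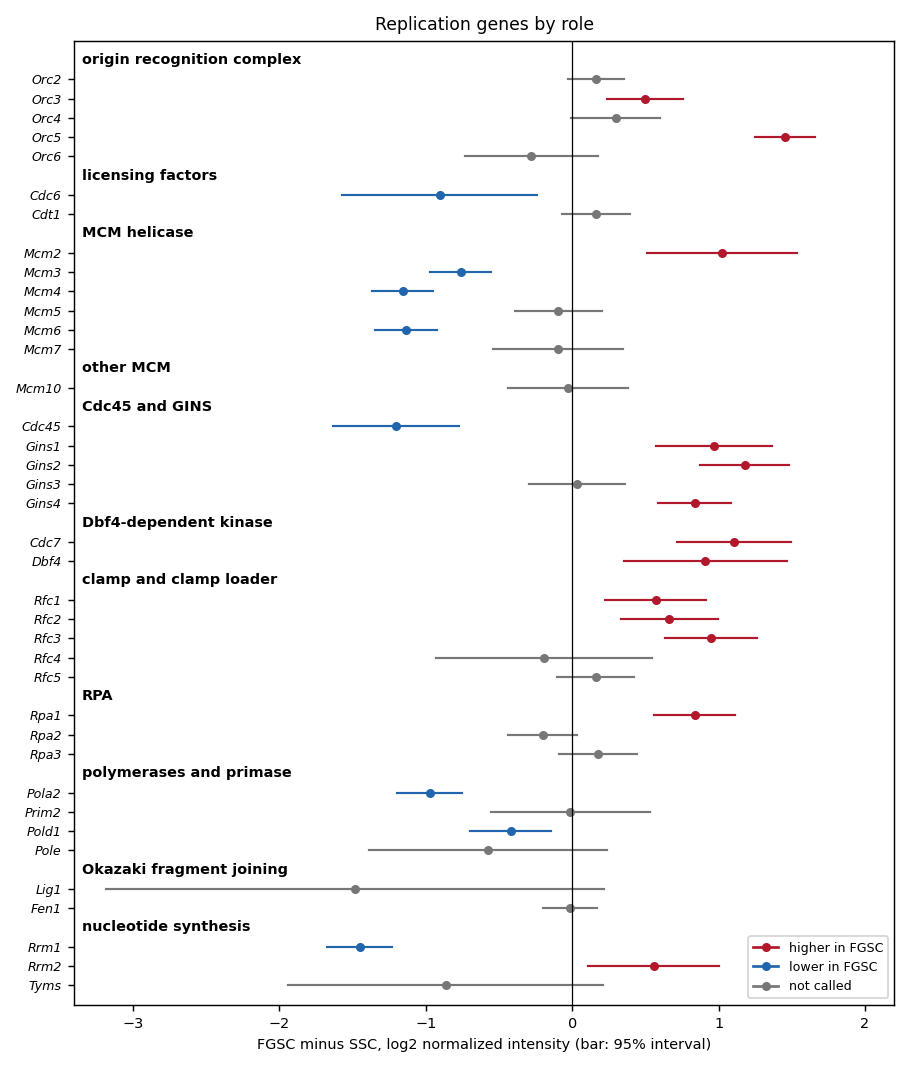
FGSC minus SSC difference (log2 normalized intensity, x axis) of each tested replication gene, grouped by role (y axis), with 95% intervals of the limma fit over 3 arrays a group and colours for the call. GINS, kinase and clamp loader genes lie mostly to the right, and most MCM helicase and polymerase genes to the left.

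Promoters of many such genes are known targets of the E2F factors, which switch on genes for S phase, so the letters TTTCCCGC, TTTGGCGC, TTTCGCGC and TTTGCCGC, all forms of the E2F recognition sequence, were searched on both strands. The windows were RefSeq promoters (GRCm38.p6), 250 bases before to 50 after a gene start, and 35 of the 43 genes had at least 1. At least 1 octamer was present for 13 of the 35 genes (37.1%), against 704 of 27025 genes in the same table (2.605%). The octamer was found for 2 of 9 genes higher in FGSC, 4 of 7 lower, 5 of 15 not called and 2 of 4 not tested. The CCAAT box, searched in the same way as the letters CCAAT, was present for 22 of the 35 genes (62.9%) and for 41.1% of all genes. A match is a description of the letters and not a bound site. The genes with an octamer in the stretch from 170 bases before to 20 after the start included members that went in opposite directions, and 4 of them are shown on the gene's strand with the octamers in capitals, 2 lower in FGSC (Mcm6, Cdc6) and 2 higher (Rfc3, Orc3).
Mcm6: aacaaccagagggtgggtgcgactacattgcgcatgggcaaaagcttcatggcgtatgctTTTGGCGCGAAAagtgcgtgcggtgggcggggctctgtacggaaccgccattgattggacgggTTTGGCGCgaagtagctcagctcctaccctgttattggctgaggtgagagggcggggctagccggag
Cdc6: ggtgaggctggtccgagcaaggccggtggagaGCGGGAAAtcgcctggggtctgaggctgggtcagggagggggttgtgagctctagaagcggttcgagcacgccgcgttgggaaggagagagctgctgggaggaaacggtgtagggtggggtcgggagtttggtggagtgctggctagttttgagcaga
Rfc3: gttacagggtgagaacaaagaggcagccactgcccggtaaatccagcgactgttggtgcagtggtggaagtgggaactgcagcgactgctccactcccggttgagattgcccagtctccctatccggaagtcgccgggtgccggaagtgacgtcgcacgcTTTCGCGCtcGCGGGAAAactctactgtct
Orc3: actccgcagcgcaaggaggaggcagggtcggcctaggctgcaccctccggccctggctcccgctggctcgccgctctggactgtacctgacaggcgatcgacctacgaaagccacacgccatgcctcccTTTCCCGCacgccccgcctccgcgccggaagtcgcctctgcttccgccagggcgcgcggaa
The stretches lie at chr1:128359686-128359875 (minus strand, Mcm6), chr11:98907981-98908170 (plus strand, Cdc6), chr5:151651189-151651378 (minus strand, Rfc3) and chr4:34614923-34615112 (minus strand, Orc3). Mcm6 holds 3 octamers, 2 of which overlap on opposite strands in the first run of capitals, Rfc3 holds 2, and Cdc6 and Orc3 hold 1 each.

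Among the 5 listed subunits of the origin recognition complex, which marks origins, 2 were higher in FGSC, 0 were lower and 3 were not called. The background shares were 30.9% higher and 31.5% lower. Orc5 showed the clearest change. It measured 8.65, 8.62 and 8.57 on SSC replicates 1 to 3 and 9.95, 10.09 and 10.15 on FGSC replicates 1 to 3. The groups lay well apart, with a difference of 1.45 ± 0.08, or 2.74-fold (adjusted p = 1.53e-05), and its other probe gave 1.74 ± 0.11. Orc3, whose promoter is shown above, was dim, at 4.92, 4.93 and 4.96 in SSC and 5.35, 5.30 and 5.65 in FGSC, a difference of 0.50 ± 0.11 (adjusted p = 0.00699). This call was lost with median scaling, at 0.26 (adjusted p = 0.0772). Orc4 gave 0.30 ± 0.13 and was called without FGSC replicate 3 (0.37, adjusted p = 0.0412) and without SSC replicate 1 (0.39, adjusted p = 0.0468). Orc2 was near background, detected on 1 SSC array and 2 FGSC arrays, and gave 0.16 ± 0.08. It was called with the authors' processed values (0.49, adjusted p = 0.0267) and with trended and robust moderation (0.16, adjusted p = 0.0390). Orc6, the smallest subunit, gave -0.28 ± 0.19, and its FGSC replicate 3 value of 8.82 lay below the 9.36 and 9.52 of the other two. Without that array the difference was -0.07.

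The licensing factors could be followed for 2 of 3 genes. Cdc6, the ATPase that helps load the Mcm ring, measured 5.48, 5.80 and 6.62 in SSC and 5.11, 4.995 and 5.07 in FGSC. All FGSC values lay below all SSC values, and the spread within SSC was wide. Its difference was -0.91 ± 0.28 (adjusted p = 0.0271). Leaving out 1 array ended the call in 3 cases, namely SSC replicate 2 (adjusted p = 0.0516), FGSC replicate 1 (0.0604) and FGSC replicate 2 (0.0782), and without SSC replicate 3 the difference was -0.58 (adjusted p = 0.0107). The call was also lost with an offset of 50 (-0.54, adjusted p = 0.0544) and with no detection filter (-0.91, adjusted p = 0.0610). Cdt1, the partner of Cdc6 in loading, gave 0.16 ± 0.10 and was called only without FGSC replicate 3 (0.24, adjusted p = 0.0372). The probe for its inhibitor Gmnn was not detected on any array.

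The 6 subunits of the Mcm ring, which act together in equal numbers, split into 3 lower, 1 higher and 2 not called in FGSC. Of all genes tested, 31.5% were lower and 30.9% higher. Mcm4 measured 11.02, 11.04 and 10.91 in SSC and 9.89, 9.88 and 9.72 in FGSC. Every FGSC array was lower, and the difference was -1.16 ± 0.09, or 2.23-fold (adjusted p = 4.32e-05). Its other kept probe, near background, gave -0.08 ± 0.07 and was not called, and the mean of both was -0.62. Mcm6 measured 9.34, 9.43 and 9.34 in SSC and 8.15, 8.36 and 8.19 in FGSC. Its groups were as clearly apart, by -1.14 ± 0.09 (adjusted p = 5.36e-05). Its second brightest probe gave a called -0.65 ± 0.13, and its dimmest gave -0.84 ± 0.35 and was not called. Mcm3 measured 7.16, 7.08 and 7.04 in SSC and 6.44, 6.32 and 6.23 in FGSC, a difference of -0.76 ± 0.09 (adjusted p = 0.000348). In the opposite direction, Mcm2 stood at 6.35, 6.62 and 6.36 in SSC and at 7.19, 7.95 and 7.26 in FGSC. The FGSC arrays were all higher but uneven, with replicate 2 the highest, and the difference was 1.02 ± 0.21 (adjusted p = 0.00558). It was 0.82 with median scaling, where the call was lost (adjusted p = 0.0877).

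For the remaining subunits the arrays gave no single answer. Mcm5 measured 10.69, 10.87 and 10.62 in SSC and 10.75, 10.74 and 10.41 in FGSC, so that the groups overlapped. Its difference was -0.09 ± 0.12, with a 95% interval from -0.39 to 0.20, and 0.02 without FGSC replicate 3. The brighter probe of Mcm7 gave -0.10 ± 0.19 (interval from -0.54 to 0.35; -0.27 without FGSC replicate 3, not called), while its other probe gave a called -0.78 ± 0.14 (adjusted p = 0.00310 over single probes). With the mean of both probes Mcm7 was called, at -0.44 (adjusted p = 0.0433). Mcm10, which is not part of the ring but helps to activate it, gave -0.03 ± 0.17 on its brightest probe, and 0.17 without FGSC replicate 3, neither of them called. Its next probe was higher in FGSC (0.65 ± 0.16, adjusted p = 0.0120) and its dimmest kept probe, not detected on any FGSC array, was lower (adjusted p = 0.0114), with a difference that is only a bound. Mcm8, a relative of the ring subunits, had no signal above background on any array.

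Of the factors that turn the ring into the working helicase, 3 of 4 GINS subunits were higher and Cdc45 was lower in FGSC. Over all genes, 30.9% were higher and 31.5% lower. Cdc45 measured 8.77, 8.90 and 8.50 in SSC and 7.39, 7.31 and 7.87 in FGSC. The 2 sets did not overlap, and the difference was -1.20 ± 0.18, or 2.30-fold (adjusted p = 0.00118). Gins2 measured 7.22, 7.24 and 7.36 in SSC and 8.39, 8.26 and 8.70 in FGSC. Each FGSC array was higher, by 1.18 ± 0.13 on average (adjusted p = 0.000256), and its other 2 probes gave 1.69 ± 0.14 and 1.89 ± 0.13. Gins1 stood at 7.75, 7.80 and 7.57 in SSC and 8.44, 8.56 and 9.02 in FGSC (0.97 ± 0.16, adjusted p = 0.00220). Gins4 stood at 9.40, 9.65 and 9.38 in SSC and 10.39, 10.32 and 10.22 in FGSC (0.84 ± 0.10, adjusted p = 0.000483). Gins3, the fourth subunit, was near background and gave 0.03 ± 0.14, with an interval from -0.30 to 0.36 (-0.03 without FGSC replicate 3).

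Both genes of the Dbf4-dependent kinase, which phosphorylates the Mcm ring, were higher in FGSC, beside 30.9% of all genes. Cdc7, the catalytic subunit, measured 6.27, 6.45 and 6.19 in SSC and 7.47, 7.68 and 7.09 in FGSC. All FGSC values exceeded all SSC values, with a difference of 1.11 ± 0.16 (adjusted p = 0.00111). Dbf4, its activator, measured 8.11, 7.79 and 8.12 in SSC and 9.16, 9.20 and 8.40 in FGSC. FGSC replicate 3 was closer to SSC than to the other FGSC arrays. The difference was 0.91 ± 0.23 (adjusted p = 0.0133), 1.17 without FGSC replicate 3 (adjusted p = 0.000251) and 0.80 without SSC replicate 2 (adjusted p = 0.0504). Its other 2 kept probes, near background, gave 0.23 ± 0.10 and 0.33 ± 0.15 and were not called. With median scaling neither was called, Cdc7 at 0.89 (adjusted p = 0.0707) and Dbf4 at 0.83 (adjusted p = 0.167).

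**Figure D3:**
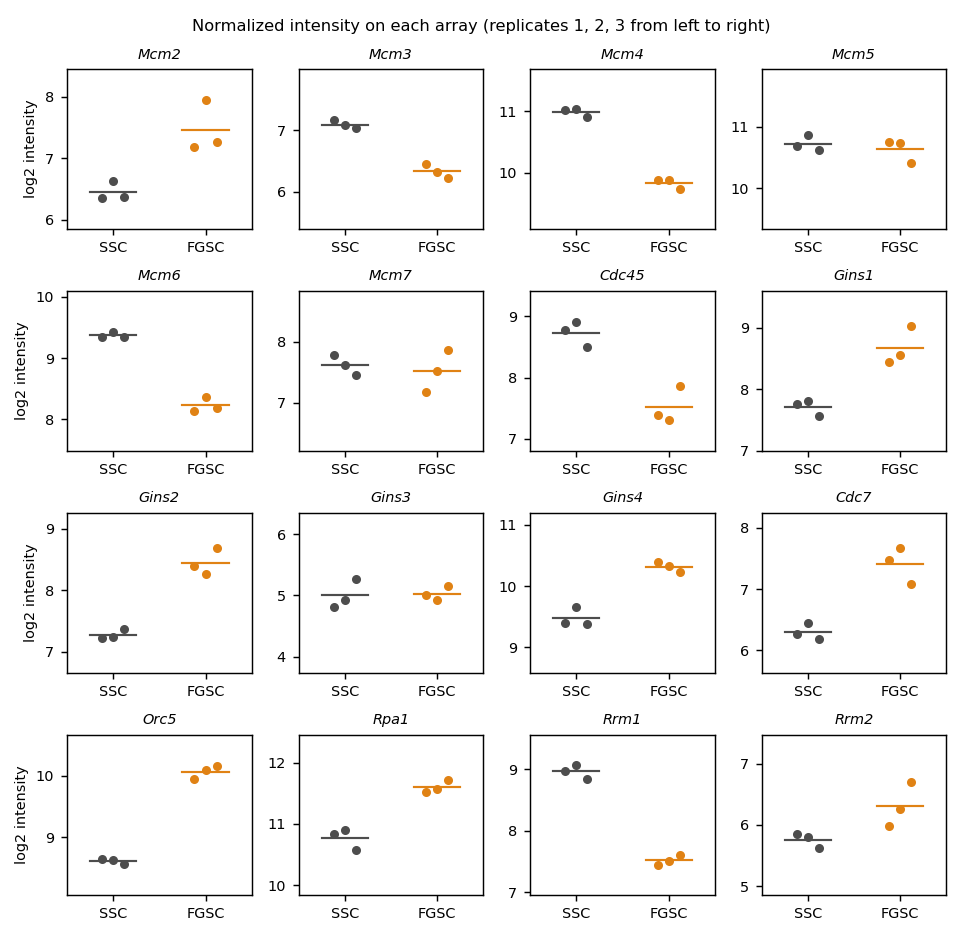
Normalized log2 intensity (y axis) of 16 replication genes on the 3 SSC and 3 FGSC arrays (x axis), with a point for each array and a bar for the group mean; every panel spans the same 2.6 log2 units. Mcm3, Mcm4, Mcm6, Cdc45 and Rrm1 lie lower in FGSC, Mcm2, Gins1, Gins2, Gins4, Cdc7, Orc5, Rpa1 and Rrm2 lie higher, and Mcm5, Mcm7 and Gins3 overlap.

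Of the 5 tested clamp loader genes, 3 were higher in FGSC and 0 lower, beside 30.9% and 31.5% of all genes. Rfc1, the large subunit, measured 9.57, 9.64 and 9.35 in SSC and 9.88, 10.04 and 10.35 in FGSC (0.57 ± 0.14, adjusted p = 0.0128). Rfc2 measured, on its brightest probe, 9.83, 9.74 and 9.71 in SSC and 10.29, 10.26 and 10.72 in FGSC (0.66 ± 0.14, adjusted p = 0.00567). Rfc3, whose promoter carries 2 octamers, measured 5.52, 5.62 and 5.44 in SSC and 6.26, 6.45 and 6.72 in FGSC (0.95 ± 0.13, adjusted p = 0.000819). In each of these 3 genes the FGSC arrays all lay above the SSC arrays, and FGSC replicate 3 was the highest. Rfc4 gave -0.19 ± 0.31, with values that varied from 5.99 to 6.93 within SSC alone, and -0.09 without FGSC replicate 3. Its other kept probe, near background, gave 0.13 ± 0.08 and was not called. Rfc5 gave 0.16 ± 0.11 and was called without SSC replicate 3 (0.27, adjusted p = 0.0391). The clamp itself could not be compared. The Pcna probe gave raw signals of 99.6, 92.2 and 124 on the SSC arrays and 92.9, 98.8 and 90.8 on the FGSC arrays, and only the value of 124 on SSC replicate 3 was detected, so it did not pass the filter.

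The RPA genes, whose products form a trimer on single-stranded DNA, differed in their response. Rpa1, the largest subunit, measured 10.83, 10.91 and 10.57 in SSC and 11.52, 11.58 and 11.72 in FGSC. It was higher on every FGSC array, by 0.84 ± 0.11 (adjusted p = 0.000787). Rpa3 gave 0.18 ± 0.11, with an interval from -0.09 to 0.44, and was not called. Rpa2 gave -0.20 ± 0.10 on its brightest probe and was called without FGSC replicate 3 (-0.27, adjusted p = 0.0384). A second Rpa2 probe gave -0.82 ± 0.09 (adjusted p = 0.000273 over single probes), and the mean of all 3 kept probes was a called -0.39 (adjusted p = 0.00220).

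Of 4 tested polymerase and primase members, 0 were higher in FGSC and 2 lower, beside 30.9% and 31.5% of all genes. The accessory subunit genes of polymerases delta and epsilon that could be tested, among the other fork genes below, were all called higher, by 0.42 to 1.36. Another of them, Pole2, did not pass the detection filter and was not tested. Pola2, the regulatory subunit of polymerase alpha, measured 7.82, 7.91 and 7.70 in SSC and 6.76, 6.94 and 6.80 in FGSC. The groups were well apart, with a difference of -0.97 ± 0.09 (adjusted p = 0.000144). Pold1, the catalytic subunit of polymerase delta, measured 9.92, 9.85 and 9.78 in SSC and 9.32, 9.31 and 9.65 in FGSC. Its difference of -0.42 ± 0.11 (adjusted p = 0.0173) was small, and the call ended without SSC replicate 1 (-0.38, adjusted p = 0.0621), SSC replicate 2 (-0.42, 0.0521), FGSC replicate 1 (-0.37, 0.0547) or FGSC replicate 2 (-0.36, 0.0614), and with median scaling (-0.37, 0.122). Pole, the catalytic subunit of polymerase epsilon, gave -0.57 ± 0.34, with FGSC replicate 3 at 5.26 against 6.38 and 6.19 on the other FGSC arrays. Without that array it was -0.23 (adjusted p = 0.416). Prim2, the large primase subunit, gave -0.01 ± 0.23, with an interval from -0.55 to 0.53, and -0.27 without FGSC replicate 3 (adjusted p = 0.0838). Its other kept probe gave 0.33 ± 0.16 and was not called. The probes of Pola1 and Prim1, the catalytic subunits of polymerase alpha and primase, were detected on no array.

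For the genes that finish the lagging strand, neither was called, and 1 of the 2 depended on a single array. Fen1, the flap endonuclease, measured 10.02, 10.04 and 10.09 in SSC and 9.98, 10.01 and 10.12 in FGSC. The values interleaved, and the difference was -0.01 ± 0.08 with an interval from -0.20 to 0.17 (-0.06 without FGSC replicate 3). Lig1, the ligase that seals the nicks, measured 8.31, 8.47 and 8.87 in SSC and 8.09, 7.80 and 5.31 in FGSC. FGSC replicate 3 lay far below the other 2, so that the difference of -1.48 ± 0.71 was not called (adjusted p = 0.109), whereas without that array it was a called -0.61 (adjusted p = 0.0269). Another Lig1 probe gave 6.49, 6.47 and 6.43 in SSC and 6.44, 6.71 and 6.62 in FGSC, with no drop on FGSC replicate 3, and a difference of 0.13 ± 0.09. The third kept probe was lowest on FGSC replicate 3, at 4.92 against 5.64 and 5.08 on FGSC replicates 1 and 2, and gave -0.34 ± 0.25, which was not called.

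Ribonucleotide reductase, which makes deoxynucleotides from a large subunit (Rrm1) and a small one (Rrm2), had its subunits on opposite sides. Rrm1 measured 8.98, 9.07 and 8.85 in SSC and 7.44, 7.50 and 7.61 in FGSC. It was lower on every FGSC array, by 1.45 log2 units (a difference of -1.45 ± 0.09, or 2.73-fold, adjusted p = 2.23e-05), and its other kept probe gave -1.78 ± 0.13. Rrm2 measured 5.85, 5.80 and 5.62 in SSC and 5.98, 6.25 and 6.70 in FGSC. The FGSC values were all higher, but the nearest ones were only slightly so, and the difference was 0.56 ± 0.19 (adjusted p = 0.0368). Without FGSC replicate 3 it was 0.36 (adjusted p = 0.0345), and the call was lost without SSC replicate 1 (0.61, 0.0675), SSC replicate 2 (0.58, 0.0826), SSC replicate 3 (0.49, 0.108) or FGSC replicate 2 (0.59, 0.0768), with median scaling (0.22, 0.317), and in 4 further settings: no background correction (0.26, 0.0526), an offset of 50 (0.37, 0.0540), no detection filter (0.56, 0.0725) and the replicate number as a block (0.56, 0.0799). The other kept Rrm2 probe was also called higher, at 0.38 ± 0.11 (adjusted p = 0.0239 over single probes). Tyms, thymidylate synthase, gave -0.86 ± 0.45, with FGSC replicate 3 at 5.56 against 6.76 and 7.31. Without FGSC replicate 3 it was -0.37 (adjusted p = 0.250). The call was gained by leaving out FGSC replicate 2 (-1.25, adjusted p = 0.0486). A dimmer probe of it was higher in FGSC (0.53 ± 0.16, adjusted p = 0.0272 over single probes).

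FGSC replicate 3 moved individual replication probes in both directions. On this array 6 of the 38 genes (15.8%) lay at least 0.5 log2 units below the mean of FGSC replicates 1 and 2, namely Dbf4, Lig1, Mcm10, Orc6, Pole and Tyms, against 7.16% of all genes. Another 5 lay at least 0.5 above it, namely Cdc45, Gins1, Mcm7, Prim2 and Rrm2, against 6.37% of all genes. Probes of one gene could part company on it. The 4 Rfc2 probes measured 8.16, 9.10, 8.18 and 10.29 on FGSC replicate 1 and 8.89, 8.90, 6.69 and 10.72 on replicate 3, so that 1 fell steeply, 1 fell slightly and 2 went up. With all arrays their differences were 1.34 ± 0.23, 0.39 ± 0.11, 0.04 ± 0.39 and 0.66 ± 0.14 in the same order, and the one at 0.04 was not called. Without FGSC replicate 3 all 4 were called higher, by 1.09, 0.47, 0.53 and 0.51. In all, 15 replication genes had at least 2 kept probes. Every kept probe was called higher for 3 (Gins2, Orc5 and Rrm2) and lower for 1 (Rrm1), no probe was called for 3 (Lig1, Prim2 and Rfc4), and only some were called, in 1 direction, for 7. Mcm10 alone had probes called in opposite directions. Of all named kept probes, 59.4% were called.

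**Figure D4:**
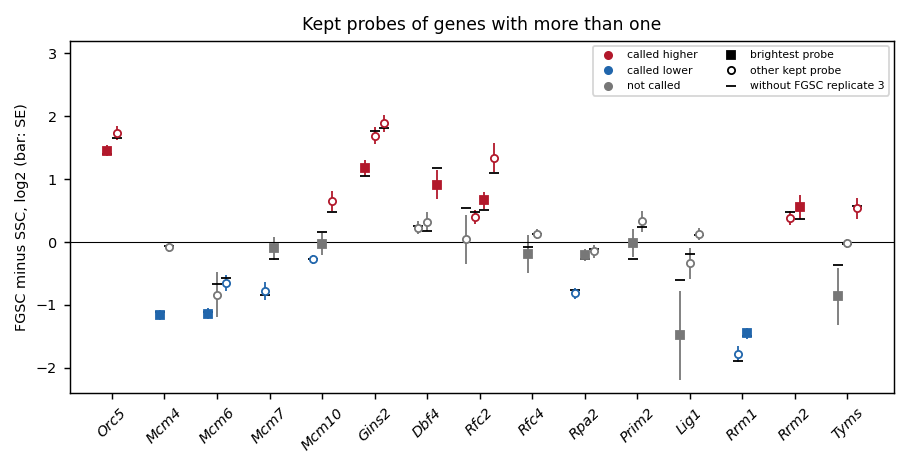
FGSC minus SSC difference (log2 normalized intensity, y axis; bar, SE) of each kept probe of the 15 replication genes with more than 1 (x axis), with a square for the brightest probe, an open circle for others and a dash for the value without FGSC replicate 3. Every kept probe of Orc5, Gins2, Rrm1 and Rrm2 was called, in the same direction within each gene, and only Mcm10 had probes called in opposite directions. Probes of some other genes also differ in sign, without opposite calls. The brightest Lig1 probe moves from -1.48 to -0.61 without FGSC replicate 3.

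Other genes of the fork and of origins also went both ways. Of 30 listed, 25 were tested, with 7 higher and 8 lower in FGSC and a median difference of 0.13. Without FGSC replicate 3 the median was -0.02, with 9 higher and 9 lower. The polymerase epsilon subunit gene Pole3 was higher (1.36 ± 0.15), and Mtbp, which helps to fire origins, and the fork protection gene Tipin were lower, at -1.61 ± 0.15 and -1.39 ± 0.09. Other nucleotide synthesis genes counted 5 higher and 4 lower of 12 (median 0.03, and 0.04 without FGSC replicate 3). Tk1, thymidine kinase, was lower (-1.26 ± 0.18), and Rrm2b, the alternative small subunit of ribonucleotide reductase, was higher (1.11 ± 0.14). Among regulators of S phase entry, 4 of 15 were higher and 6 lower (median -0.14), and 5 higher and 6 lower without FGSC replicate 3 (median -0.16). E2f2 was higher (1.77 ± 0.10), while Cdk2, the kinase of S phase entry, and E2f3 were lower (-1.65 ± 0.14 and -1.54 ± 0.14). Mitosis markers, which cycling cells express, counted 2 higher and 4 lower of 8 (median -0.36), and 3 higher and 4 lower without FGSC replicate 3. Birc5 stood at 2.78 ± 0.19 and Top2a at -2.36 ± 0.08. The background shares given above (30.9% higher and 31.5% lower) apply to each of these counts.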

How the data were processed

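RNA of 6 samples was hybridised to Illumina arrays. Per the file headers, the authors deposited unnormalized signal intensity with detection p-values, 1 of each per probe and array. A second deposited table of processed intensity values had the same distribution in all columns (median 19.9, lowest value 1.01) and a rank correlation of 1 with the signals. Its background step and scaling are not stated, and it served as an alternative. Per the submitters' processing notes, lumi is named (no version).

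Signals were background-corrected with neqc (limma 3.58.1, R 4.3.3), with an offset of 16, then quantile-normalized and converted to log2 values, none of which was deposited. A probe was kept if 3 or more of the 6 arrays detected it (detection p-value under 0.05). Symbols came from the platform annotation, updated by gene ID through RefSeq. The brightest kept probe stood for a gene, which gave 10628 genes. FGSC were compared with SSC by lmFit and eBayes with no covariate, with Benjamini-Hochberg adjustment over all genes. Single probes were fitted in the same way over 16159 probes, an alternative chosen after seeing the data. The test was checked on simulated data. The number of arrays limits the precision. An exact permutation test of 3 against 3 arrays cannot give a p below 0.1 and was not run. The files name no slide or scan batch. The members and lists were chosen with earlier results of these data known. All 43 members are accounted for. From each other list, apart from the cell type markers, the rule allowed up to 4 called genes with the largest differences and 2 uncalled ones. A probe was irregular where its detection p-value lay more than 0.01 outside those of probes with like signal or its signal had 9 or more digits. This held for 188 probes, 0 of them for replication genes. No replicates had identical values. Normalization, background correction, offset, detection filter, probe choice, moderation, single arrays and a replicate block were varied.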

Additional observations from a re-analysis of the deposited data

How the results depend on the processing

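Of the 38 tested replication genes, 23 kept the same call in all of the 16 alternatives in which they could be fitted, and no gene with a called value turned its direction. Of 604 gene and setting pairs, 25 lost a call and 11 gained one. Rrm2 lost its call in 9 settings, Pold1 in 6 and Cdc6 in 5. Median scaling left 8 replication genes higher in place of 13; the cause was not tested. A detection p-value under 0.01 on all 6 arrays left 34 replication genes, with 12 higher and 7 lower, and 4396 called genes of 6896 in place of 6632 of 10628, since fewer genes were tested. Leaving out 1 array at a time gave 5781 to 6993 called genes in all, 11 to 15 replication genes higher and 6 to 10 lower. Samples with the same replicate number did not deviate together (correlations of -0.20, -0.05 and -0.22), and with the replicate number as a block 5928 genes were called, 12 replication genes higher and 7 lower. The offset, the low signal of probes near background and the 3 arrays a group limit what could be seen for Orc2, Gins3, Gmnn, Mcm8, Pcna, Pola1 and Prim1.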

Other observations

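Genes of processes next to replication were also measured, and their counts stand beside 30.9% of all genes tested that were higher in FGSC and 31.5% that were lower. Of 8 tested genes that rebuild chromatin behind the fork, 3 were higher and 2 lower in FGSC (median 0.20), and 4 higher and 1 lower without FGSC replicate 3 (median 0.52), with the large subunit gene of chromatin assembly factor, Chaf1a, and the histone chaperone gene Asf1b both at 1.06 ± 0.14, and Chaf1b at -0.38 ± 0.10. Mitochondrial DNA replication counted 2 higher and 4 lower of 10 (median -0.40, and -0.27 without FGSC replicate 3). The mitochondrial RNA polymerase gene Polrmt was higher (1.10 ± 0.12), and Top1mt and the catalytic polymerase gene Polg were lower (-1.16 ± 0.10 and -0.78 ± 0.20). Of 11 repair and bypass polymerase genes 4 were higher and 1 was lower (median 0.09, and 0.16 without FGSC replicate 3), with Polb, the base excision repair polymerase, at 1.24 ± 0.16 and Poll at 1.01 ± 0.16.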
